A study of Mus musculus with 27 samples.

Results

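The 8 genes described here are the Jun family (Jun, Junb and Jund), the Fos family (Fos, Fosb, Fosl1 and Fosl2) and Atf3, which were taken by their gene symbols and number 8 of the 23295 genes in the RNA table of parental cells and 8 of the 24247 genes in the RNA table of shRNA cells. All 8 were listed in both tables, and their loci were looked up in the lamin B1 and ATAC peak lists on mm9. The cells were NMuMG, a mouse cell line from normal mammary gland epithelium that undergoes an epithelial-to-mesenchymal transition (EMT) when given TGF-β. Parental cells, cells with a control shRNA and cells with an shRNA against lamin B1 (KD) were untreated or had TGF-β (1 to 5 ng/ml) for 8 or 24 h. The control and KD cells both carried an shRNA brought in by infection and were selected with puromycin. RNA-seq gave 2 libraries for each of these 9 groups, 18 in all, and lamin B1 ChIP-seq and ATAC-seq of parental cells gave 1 library per time point, each ChIP library being a mix of 2 parallel ChIPs.

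AP-1 is a dimer of basic leucine zipper proteins: Jun proteins pair with each other or with Fos proteins, whereas Fos proteins need a Jun partner to bind DNA. Such dimers recognize mainly the letters TGAGTCA and TGACTCA, searched here in the looser form TGANTCA, where N is any base. Dimers with members of the ATF and CREB families recognize mainly the longer TGACGTCA, searched here in the looser form TGANNTCA. Fos, Fosb, Junb and Atf3 are classical immediate early genes, switched on within minutes by growth factors and stress, in part through serum response factor at CArG boxes, while Fosl1 and Fosl2 follow later and lack the strong activation domain of Fos. In epithelial cells the family takes part in TGF-β signalling, where Jun and Fos proteins can act together with Smad proteins.

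Some of the regions at these loci that hold such letters are shown first, since the peaks and the RNA values below refer back to them. The Jun gene (chr4:94715725-94718913, minus strand) has no intron, and the 250 bases before its start hold TGACATCA 45 bases upstream, a variant of the AP-1 letters through which Jun is known to act on its own gene (RefSeq, GRCm38.p6, chr4:95052223-95052472, minus strand). An ATAC peak 16207 to 16803 bases downstream of the Jun start, in an intron of Gm12703, was listed at 8 and 24 h and not in untreated cells. At its 8 h centre (mm9, chr4:94702258-94702557, forward strand) stand TGAGTCA and TGAATCA. Capitals mark these letters in each run of bases.
Jun, before the start: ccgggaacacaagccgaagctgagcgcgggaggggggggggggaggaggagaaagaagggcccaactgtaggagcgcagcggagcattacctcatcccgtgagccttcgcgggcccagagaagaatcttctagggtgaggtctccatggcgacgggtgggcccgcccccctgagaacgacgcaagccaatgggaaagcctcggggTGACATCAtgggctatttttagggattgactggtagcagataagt
Jun, ATAC centre at 8 h: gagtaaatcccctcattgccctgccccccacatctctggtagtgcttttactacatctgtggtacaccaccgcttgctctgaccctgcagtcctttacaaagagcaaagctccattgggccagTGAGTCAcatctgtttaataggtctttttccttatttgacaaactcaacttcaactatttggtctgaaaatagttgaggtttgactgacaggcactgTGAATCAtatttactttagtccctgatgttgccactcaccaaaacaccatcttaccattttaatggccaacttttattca

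Fosb (chr7:19888070-19895394, minus strand) had an ATAC peak just before its start at 8 h whose centre (mm9, chr7:19895533-19895832, forward strand) holds a CArG box. A further ATAC peak, from -7351 to -6530 relative to the start and outside annotated genes, was listed at 8 and 24 h and not in untreated cells. Its centre at 8 h (mm9, chr7:19902185-19902484, forward strand) holds 2 matches to TGANTCA and 2 to TGANNTCA.
Fosb, ATAC centre before the start: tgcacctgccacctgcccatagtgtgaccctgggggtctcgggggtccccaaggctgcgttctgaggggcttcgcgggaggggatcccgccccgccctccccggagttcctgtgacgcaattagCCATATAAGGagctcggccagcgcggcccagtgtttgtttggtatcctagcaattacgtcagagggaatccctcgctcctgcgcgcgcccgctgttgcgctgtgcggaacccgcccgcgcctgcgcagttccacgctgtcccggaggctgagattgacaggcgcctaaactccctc
Fosb, ATAC centre 7 kb before the start: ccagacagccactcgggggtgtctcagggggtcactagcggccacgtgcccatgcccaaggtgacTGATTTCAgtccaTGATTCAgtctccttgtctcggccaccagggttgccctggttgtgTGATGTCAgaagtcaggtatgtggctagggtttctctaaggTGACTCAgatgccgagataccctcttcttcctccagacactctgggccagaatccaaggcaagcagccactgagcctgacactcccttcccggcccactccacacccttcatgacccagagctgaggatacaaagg

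The other regions shown lie at Fos, Junb and Fosl2 and overlap no annotated exon. Further peak centres with such letters are not shown. Among these, the ATAC peak over the Fosl1 start held TGAGTCA at its centre at 0 and 8 h. The untreated ATAC peak inside Jund held TGACGTCA, and the Atf3 ATAC peak from -7068 at 24 h held TGAGTCA. The Fos region (mm9, chr12:86826982-86827281, forward strand), 12142 to 12441 bases downstream of the Fos start, holds a CArG box and lay in an ATAC peak at all 3 times. The Junb region (mm9, chr8:87503969-87504268, forward strand), at the centre of the peak that covered the Junb start at 24 h, holds a CArG box too. It also lay in the untreated ATAC peak from -3058 to -587 relative to the start, and in no listed peak at 8 h. The Fosl2 region (mm9, chr5:32438076-32438375, forward strand), from -769 to -470 relative to the start, holds TGACTCA at the centre of the 24 h peak. This region lay in an ATAC peak at 0 and 8 h as well.
Fos, ATAC centre at 8 h: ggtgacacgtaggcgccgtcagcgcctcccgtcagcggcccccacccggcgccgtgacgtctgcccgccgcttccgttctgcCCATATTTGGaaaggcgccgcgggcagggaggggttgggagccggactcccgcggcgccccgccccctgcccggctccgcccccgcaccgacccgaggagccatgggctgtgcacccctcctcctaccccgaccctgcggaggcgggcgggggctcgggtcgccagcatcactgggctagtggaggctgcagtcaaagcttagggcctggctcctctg
Junb, ATAC centre at 24 h: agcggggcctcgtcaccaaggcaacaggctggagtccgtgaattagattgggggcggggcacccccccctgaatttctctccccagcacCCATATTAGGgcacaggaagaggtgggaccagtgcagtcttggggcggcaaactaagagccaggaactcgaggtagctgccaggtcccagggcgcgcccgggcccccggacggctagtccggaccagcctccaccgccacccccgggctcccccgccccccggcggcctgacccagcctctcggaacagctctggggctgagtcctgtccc
Fosl2, ATAC centre at 24 h: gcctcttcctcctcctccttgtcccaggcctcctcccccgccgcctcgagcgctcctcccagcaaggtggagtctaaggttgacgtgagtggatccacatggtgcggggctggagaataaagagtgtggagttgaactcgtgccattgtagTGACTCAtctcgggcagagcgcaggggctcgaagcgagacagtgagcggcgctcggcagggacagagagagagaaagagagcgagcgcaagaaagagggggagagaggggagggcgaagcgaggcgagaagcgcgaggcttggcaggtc

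RefSeq promoters (GRCm38.p6, 250 bases before to 50 after the start) matched 7 of the 8 genes, Fosl1 being without an entry. None of the 7 holds TGANTCA on either strand, letters found in 7.81% of all 32851 promoters, and Jun and Jund hold TGANNTCA, found in 14.1% of them. TATAAA, in 13.6% of all promoters, stands 33 bases before the Fos start and begins at base 1 of the 50 after the Junb start. CArG boxes were found in 1.63% of promoters and in 1.01%, 1.32% and 1.34% of ATAC peak centres at 0, 8 and 24 h. A match is a run of letters and was not tested for binding.

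Both RNA tables give FPKM, a level scaled to transcript length and to the mapped fragments of the library, so levels can be set side by side between genes within a table. The summed FPKM was 691130 to 753054 per parental library and 600579 to 910348 per shRNA library, of which the 10 highest genes took 25.0% to 34.1% and 11.4% to 40.4%. The tables give no read counts, so depth is unknown and the precision of low values cannot be stated. Lmnb1, the gene targeted by the shRNA, was at 17.9 to 36.5 FPKM in the 6 control libraries and at 4.37 to 9.27 FPKM in the 6 KD libraries, and the KD mean was 0.278, 0.246 and 0.328 of the control mean at 0, 8 and 24 h. Of 8 epithelial markers, 5 to 7 reached 1 FPKM in each library, with summed levels of 4333 to 7013 FPKM, whereas the 5 fibroblast, 5 blood cell and 4 endothelial markers summed to at most 4.56, 6.05 and 1.66 FPKM. The epithelial sum hides opposite changes. Of 6 tested in parental cells, 2 were higher and 3 lower at 24 h, beside 33.4% and 37.1% of all genes. Mean Krt19 fell there from 993 to 62.3 FPKM and Cdh1 from 116 to 40.3, while Cldn4 rose from 0.12 to 8.44. All 5 genes of a TGF-β response list (Smad7, Skil, Pmepa1, Bhlhe40 and Tgif1) were higher at 8 and at 24 h in parental cells, beside 22.4% and 33.4% of all tested genes. In control cells all 5 were higher at both times (19.4% and 25.5% of all genes). In KD cells 4 were higher at 8 h and 5 at 24 h (23.0% and 28.6% of all genes).

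Before treatment, Junb stood highest of the 8 genes and Fosb lowest. In untreated parental cells the order of mean FPKM was Junb, Jund, Fosl1, Fosl2, Jun, Atf3, Fos and Fosb, and only Fosl1 and Fosl2 overlapped between libraries. At 24 h Fosl2 had moved up next to Jund, whose libraries it overlapped, and Fosl1 had fallen below Atf3. Junb was highest in all 9 groups, and Fosb was lowest in all but the control cells at 24 h, where the libraries of Fosb and Fos overlapped.

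**Figure D1:**
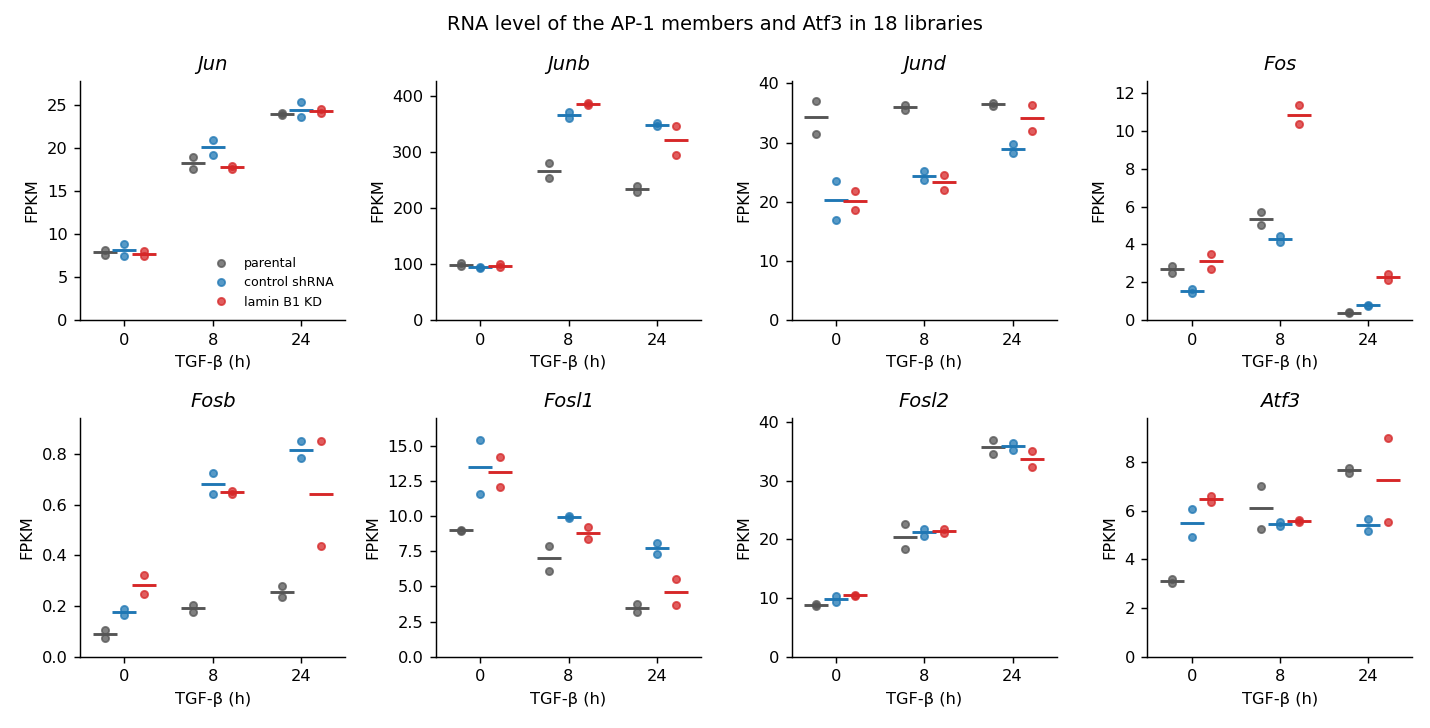
FPKM of each gene (y axes start at 0, scales differ) against hours of TGF-β in parental, control shRNA and lamin B1 KD cells; points are the 2 libraries of a group and dashes their mean. Fosl2 rose from 8.72 and 9.02 to 37.0 and 34.5 FPKM in parental cells, and Fos lay higher in KD than in control cells at each time.

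The Jun family in parental cells was examined first, to follow the obligate partners of AP-1 through the TGF-β course. Jun, the founding member, had 7.61 and 8.12 FPKM in the untreated libraries, 18.9 and 17.5 FPKM after 8 h, then 24.1 and 23.8 FPKM after 24 h. No library of one time overlapped another, and the mean was 2.32 times the untreated mean at 8 h and 3.05 times at 24 h. On the log2(FPKM + 1) scale, which understates changes of low genes, Jun rose by 1.12 at 8 h (SE 0.05, adjusted p = 3.32e-05) and by 1.49 at 24 h (SE 0.05, adjusted p = 1.27e-06).

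Junb, an immediate early gene whose protein is a weaker activator than Jun, had 102 and 96.7 FPKM in untreated parental libraries. At 8 h these rose to 282 and 253 FPKM, and 24 h libraries had 240.5 and 229 FPKM. Its libraries also did not overlap between times: it peaked at 8 h and was slightly lower at 24 h. The log2 change was 1.42 at 8 h (SE 0.06, adjusted p = 2.42e-05), 1.23 at 24 h (SE 0.06, adjusted p = 3.56e-06) and -0.18 from 8 to 24 h (adjusted p = 0.0363). This last step was no longer called in 6 of its 8 alternative fits, with adjusted p between 0.0522 and 0.178 in those, and was -0.11 without the 8 h library at 282 FPKM.

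Jund, the member known for steady expression, differed from both. Its untreated parental libraries were at 37.1 and 31.4 FPKM, those at 8 h at 35.5 and 36.4 FPKM and those at 24 h at 36.1 and 36.8 FPKM, so the untreated libraries spanned all others. The log2 change was 0.07 at 8 h (95% interval -0.10 to 0.24, adjusted p = 0.444) and 0.09 at 24 h (95% interval -0.08 to 0.26, adjusted p = 0.302). Without the untreated library at 37.1 FPKM these changes were 0.19 and 0.21, with adjusted p of 0.0281 and 0.0129. Exons of Gm11175 on the opposite strand overlap 18.9% of the Jund exonic length, and those of BC042782 overlap 7.28% of Jun, and while the study describes its RNA-seq profiles as strand-specific, whether the FPKM counting used strand is not given in the sources used here.

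Within the Jun family the balance moved further towards Junb. Junb made up 69.5% and 71.0% of the summed Jun family FPKM in untreated parental libraries, 83.8% and 82.4% at 8 h, and 80.0% and 79.1% at 24 h. The Jun family sum itself went from 146.5 and 136.3 FPKM to 335.9 and 307.0 FPKM at 8 h, then 300.7 and 289.9 FPKM at 24 h.

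The Fos family was followed next. Fos, the short-lived immediate early partner of Jun, was at 2.5 and 2.87 FPKM in untreated parental cells, at 5.71 and 5.02 FPKM at 8 h, then at 0.446 and 0.352 FPKM at 24 h. It was thus highest at 8 h and lowest at 24 h, without overlap, with a mean of 2.0 times and then 0.149 times the untreated mean. The log2 change was 0.79 at 8 h (SE 0.09, adjusted p = 0.000374), -1.39 at 24 h (SE 0.09, adjusted p = 1.04e-05) and -2.18 from 8 to 24 h (SE 0.09, adjusted p = 6.94e-06). With 0.1 in place of 1 added to these low levels, the changes to 24 h were -2.48 and -3.46.

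Fosl2, which encodes Fra-2, moved the other way over the day. Its parental libraries were at 8.72 and 9.02 FPKM untreated, at 22.6 and 18.3 FPKM at 8 h, then at 37.0 and 34.5 FPKM at 24 h, rising at each step without overlap. The mean at 24 h was 4.03 times the untreated mean, the largest ratio among the 8 genes in parental cells. Fosl2 rose by 1.11 on the log2 scale at 8 h (SE 0.09, adjusted p = 0.000122), by 1.90 at 24 h (SE 0.09, adjusted p = 3.65e-06) and by 0.78 from 8 to 24 h (adjusted p = 0.000496).

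Fosl1, which encodes Fra-1, was at 8.94 and 9.03 FPKM in untreated parental cells, at 6.09 and 7.87 FPKM at 8 h, then at 3.17 and 3.77 FPKM at 24 h. All libraries at 24 h lay below those at 8 h, and these below the untreated ones. Fosl1 fell by 1.16 on the log2 scale at 24 h (SE 0.11, adjusted p = 8.87e-05). At 8 h it fell by 0.33 (adjusted p = 0.0423), a call lost in 5 of its 8 alternative fits, with adjusted p up to 0.167, and it was -0.17 without the 8 h library at 6.09 FPKM. Exons of Ccdc85b, on the opposite strand, overlap 68.1% of the Fosl1 exonic length (1162 bp), and Ccdc85b ranged from 6.57 to 14.1 FPKM in parental and from 7.89 to 21.7 FPKM in shRNA cells. Reads of the pair cannot be told apart if the counting ignored strand, and the Fosl1 values are uncertain to that extent.

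Fosb, the other immediate early Fos gene, stayed under 1 FPKM in all 18 libraries and was left out of the test by the filter on low values. In parental cells it was listed at 0.108 and 0.0743 FPKM untreated, then 0.205 and 0.178 FPKM at 8 h, then 0.277 and 0.234 FPKM at 24 h. The times did not overlap, but the levels were a small part of the family. In a fit with no filter its adjusted p was 0.0247 at 8 h and 0.0034 at 24 h.

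The balance within the family therefore turned from Fosl1 to Fosl2. Fosl1 made up 44.1% and 43.0% of the summed Fos family FPKM in untreated parental libraries, 17.6% and 25.1% at 8 h, and 7.75% and 9.70% at 24 h. Fosl2 went from 43.1% and 43.0% to 65.3% and 58.4% and then to 90.5% and 88.8%. The sum went from 20.3 and 21.0 FPKM to 40.9 and 38.9 FPKM over the same day, which is well under the Jun family sum in each library.

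**Figure D2:**
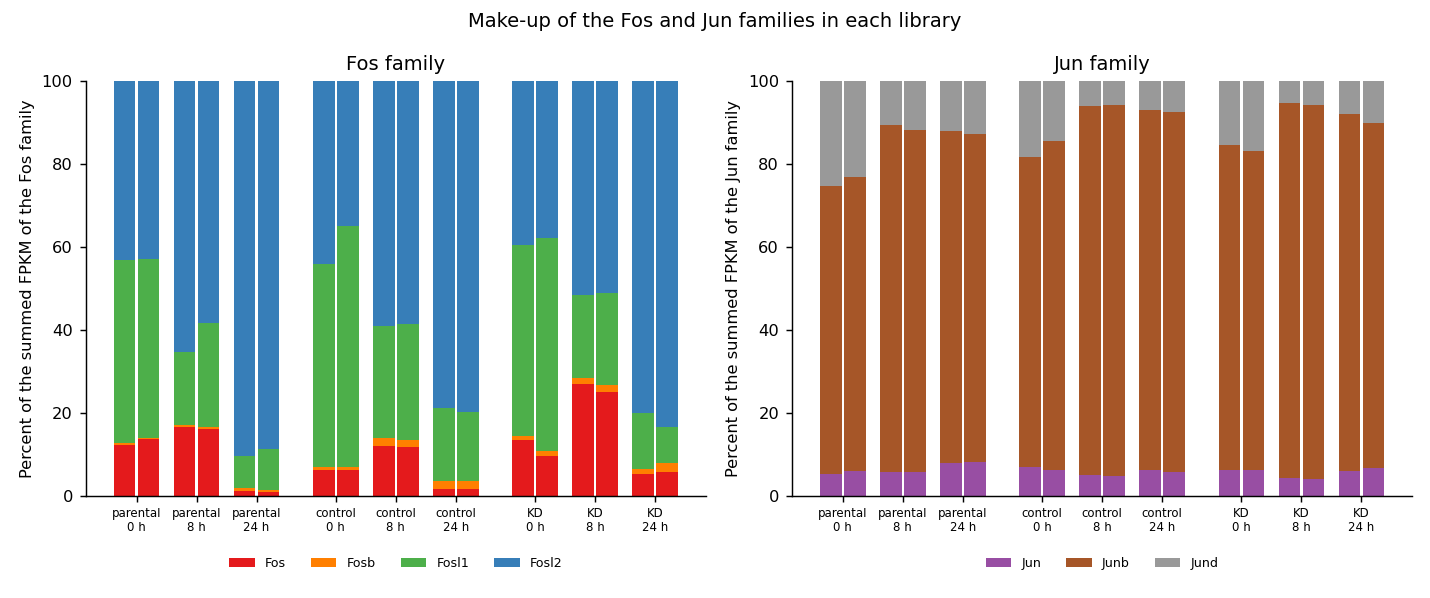
Percent of the summed FPKM of the Fos family (left) and the Jun family (right) taken by each gene, one bar per library, the 2 libraries of a group side by side. Fosl2 filled 90.5% and 88.8% of the Fos family in parental cells at 24 h, and Fos filled 27.0% and 25.0% in KD cells at 8 h.

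Atf3, a stress-induced relative of the AP-1 proteins that can pair with Jun proteins and often represses, was at 3.05 and 3.21 FPKM in untreated parental cells, at 6.99 and 5.24 FPKM at 8 h, then at 7.54 and 7.76 FPKM at 24 h. It rose without overlap between times, by 0.78 on the log2 scale at 8 h (SE 0.11, adjusted p = 0.00116) and by 1.07 at 24 h (SE 0.11, adjusted p = 0.000117). From 8 to 24 h the change was 0.29 (95% interval 0.03 to 0.55, adjusted p = 0.0609). Without the 8 h library at 6.99 FPKM it was 0.47 (adjusted p = 0.00151).

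Counting the 7 tested genes in parental cells, 5 were higher and 1 lower at 8 h, where 54.5% of all 11309 tested genes were called (22.4% higher, 32.1% lower). At 24 h 4 were higher and 2 lower, where 70.5% of all genes were called (33.4% higher, 37.1% lower). From 8 to 24 h 2 were higher and 3 lower, with 51.8% of all genes called (27.7% higher, 24.0% lower). The median log2 change of the 7 was 0.79 at 8 h and 1.07 at 24 h, against -0.05 and -0.02 over all tested genes. A call on its own was common in these cells, and the sizes given above say more than the counts.

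The shRNA cells gave 2 further time courses, in control and in KD cells, which were tested only within their own table. In control cells Jun went from 8.86 and 7.41 FPKM to 20.9 and 19.1 FPKM at 8 h, then 25.3 and 23.5 FPKM at 24 h. In KD cells it went from 7.40 and 7.97 FPKM to 17.9 and 17.6 FPKM and to 24.5 and 24.0 FPKM. Times did not overlap in either, and the rise at 24 h was 1.48 in control and 1.54 in KD cells (both SE 0.08, adjusted p = 4e-07 and 2.77e-07).

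Junb was at 95.7 and 93.8 FPKM in untreated control cells, then 372 and 360.5 FPKM at 8 h, then 348 and 352 FPKM at 24 h. In KD cells it was at 95.2 and 99.7 FPKM, 384 and 388 FPKM, and 348 and 295 FPKM. Treated libraries were all above untreated ones, with a log2 change of 1.94 in control and 1.98 in KD cells at 8 h (both SE 0.07, adjusted p = 6.15e-08 and 4.8e-08).

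Jund behaved differently here from the parental cells. In control cells it was at 23.5 and 17.0 FPKM, then at 25.1 and 23.6 FPKM, then at 28.2 and 29.8 FPKM, and in KD cells at 18.6 and 21.8 FPKM, 22 and 24.5 FPKM, and 31.9 and 36.3 FPKM. At 24 h Jund rose by 0.51 in control (SE 0.14, adjusted p = 0.00874) and by 0.73 in KD cells (SE 0.14, adjusted p = 0.00122), whereas at 8 h neither change passed (0.27 and 0.20, adjusted p = 0.115 and 0.233). Without the untreated control library at 17.0 FPKM the change of Jund at 24 h in control cells was 0.29 (adjusted p = 0.0527), and without the one at 23.5 FPKM that at 8 h was 0.50 (adjusted p = 0.00686). The difference between parental and shRNA cells was not tested, since the tables were made separately.

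Fosl2 rose in both: from 10.4 and 9.25 FPKM to 21.8 and 20.6 FPKM and to 36.5 and 35.2 FPKM in control cells, and from 10.4 and 10.5 FPKM to 21.7 and 21.2 FPKM and to 32.4 and 35.1 FPKM in KD cells. The log2 change at 24 h was 1.77 in control and 1.6 in KD cells (both SE 0.06, adjusted p = 3.39e-08 and 5.1e-08). Fosl1 was lower at each step without overlap between times, going from 11.6 and 15.4 FPKM to 9.99 and 9.86 FPKM and to 8.11 and 7.30 FPKM in control cells. In KD cells it went from 12.1 and 14.2 FPKM to 8.40 and 9.20 FPKM and to 5.49 and 3.70 FPKM. Its change at 24 h was -0.72 in control (SE 0.16, adjusted p = 0.00356) and -1.35 in KD cells (SE 0.16, adjusted p = 7.53e-05). At 8 h it was -0.40 in control (adjusted p = 0.0617) and -0.52 in KD cells (adjusted p = 0.0191), the first called without the control replicate at 11.6 FPKM (adjusted p = 0.0234) and the second lost without the KD replicate at 14.2 FPKM or at 8.40 FPKM (adjusted p of 0.116 and 0.0943).

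Fosb passed in both sets in the fit with no filter (adjusted p of 0.00435 and 0.0209 at 8 h and of 0.00122 and 0.0227 at 24 h for control and KD cells). It reached 0.851 and 0.784 FPKM in control cells and 0.435 and 0.851 FPKM in KD cells at 24 h, from 0.164 and 0.189 FPKM and 0.248 and 0.322 FPKM untreated.

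Atf3 did not show the rise seen in parental cells. In control cells it was at 6.05 and 4.93 FPKM untreated, at 5.36 and 5.52 FPKM at 8 h, then at 5.65 and 5.14 FPKM at 24 h, so the untreated libraries enclosed all treated ones. The log2 change was -0.01 at 8 h (95% interval -0.38 to 0.37, adjusted p = 0.979) and -0.02 at 24 h (95% interval -0.39 to 0.36, adjusted p = 0.933). In KD cells Atf3 was at 6.36 and 6.59 FPKM, 5.55 and 5.61 FPKM, and 5.54 and 8.96 FPKM, with changes of -0.18 (adjusted p = 0.349) and 0.11 (adjusted p = 0.562). The call at 8 h in KD cells appeared when only these 2 groups were fitted (adjusted p = 0.0124), and that at 24 h without the replicate at 5.54 FPKM (0.41, adjusted p = 0.00513). The untreated level of 4.93 to 6.59 FPKM in the shRNA cells compares with 3.05 and 3.21 FPKM in the untreated parental cells, in tables made separately.

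In control cells 4 of the 7 tested genes were higher and 0 lower at 8 h, where 64.3% of 11450 genes were called (19.4% higher, 44.9% lower). At an unadjusted p under 0.05 limma placed 1 of them, Fosl1, lower. At 24 h 4 were higher and 2 lower (70.7% of all genes called, 25.5% higher and 45.1% lower). In KD cells 4 were higher and 1 lower at 8 h (67.8% called, 23.0% higher and 44.8% lower), and 4 were higher and 2 lower at 24 h (71.9% called, 28.6% higher and 43.3% lower). The median over all genes lay between -0.14 and -0.10 on the log2 scale in these 4 comparisons, so each change above can be read against a general shift of that size.

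**Figure D3:**
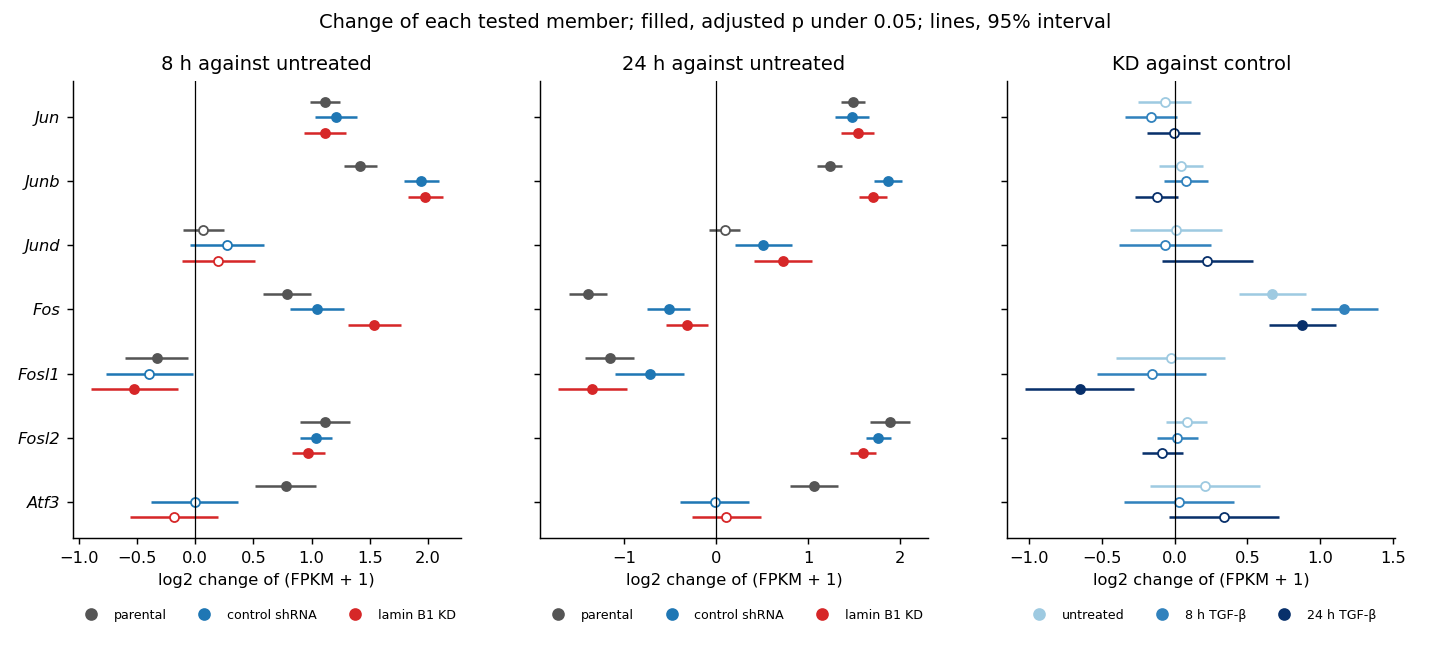
log2 change of (FPKM + 1) of the 7 tested genes at 8 h and at 24 h against untreated cells and in KD against control cells; lines are 95% intervals and filled points have an adjusted p under 0.05. Fos is the gene filled at all 3 times in the KD panel, at 0.67, 1.17 and 0.88, and Atf3 is filled for parental cells only.

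The knockdown was then set against the control at each time, to see which AP-1 genes differed when lamin B1 was lowered. Fos differed most. Its untreated libraries were at 1.45 and 1.67 FPKM in control and at 3.51 and 2.68 FPKM in KD cells. At 8 h they were at 4.45 and 4.12 FPKM against 11.4 and 10.4 FPKM, and at 24 h at 0.810 and 0.760 FPKM against 2.14 and 2.43 FPKM.

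The KD libraries were above the control libraries at every time, with means of 1.99, 2.53 and 2.91 times the control mean. Fos was higher in KD cells by 0.67 untreated (SE 0.10, adjusted p = 0.00322), by 1.17 at 8 h (SE 0.10, adjusted p = 0.000123) and by 0.88 at 24 h (SE 0.10, adjusted p = 0.000758). With 0.1 added instead of 1 the difference at 24 h was 1.43. Fitted with the 2 untreated groups alone, the untreated difference had an adjusted p of 0.0562. Over time Fos rose at 8 h by 1.05 in control (SE 0.10, adjusted p = 2.78e-05) and by 1.54 in KD cells (SE 0.10, adjusted p = 2.01e-06). At 24 h it was below untreated in control cells, with a change of -0.52 (adjusted p = 0.00146) that was -0.91 with 0.1 added, and in KD cells the change was -0.31 (adjusted p = 0.02).

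That last call was lost under quantile normalization (adjusted p = 0.205), with only these groups fitted (adjusted p = 0.1) and without the untreated KD replicate at 3.51 FPKM or the 24 h KD replicate at 2.14 FPKM (adjusted p of 0.162 and 0.0925). As a share of the Fos family, Fos was 12% and 11.7% in control cells at 8 h and 27.0% and 25.0% in KD cells.

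Fosl1 was the other gene called. At 24 h it was at 5.49 and 3.70 FPKM in KD cells against 8.11 and 7.30 FPKM in control cells, 0.596 of the control mean, with a log2 difference of -0.66 (SE 0.16, adjusted p = 0.0193). The difference was not called with only these groups fitted (adjusted p = 0.111), nor without either control library or without the second KD replicate (adjusted p of 0.116, 0.0628 and 0.0766), and was -0.42 without that KD replicate. The KD replicates at 24 h stood apart from each other for Lmnb1 too, at 4.37 and 7.52 FPKM, and for Atf3. Untreated and at 8 h the Fosl1 differences were -0.03 and -0.16 (adjusted p = 0.932 and 0.489).

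For the remaining 5 tested genes no difference passed at any time. The 95% interval of the log2 difference at 8 h was -0.34 to 0.02 for Jun, -0.08 to 0.23 for Junb, -0.38 to 0.25 for Jund, -0.12 to 0.16 for Fosl2 and -0.35 to 0.41 for Atf3. Jun at 8 h had an adjusted p of 0.142, which was 0.0492 with only the 2 groups fitted. Junb and Atf3 at 24 h were called without the first KD replicate (-0.24 and 0.64, adjusted p = 0.00332 and 0.00198), which leaves 1 KD library that is assumed to vary like the other groups. Fosb, in the fit with no filter, had adjusted p of 0.53, 0.945 and 0.368 at the 3 times.

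Of the 7 tested genes, 1 was thus higher and 0 lower in KD than in control cells untreated, where 19.7% of all genes were called (10.6% higher, 9.09% lower), and likewise at 8 h, where 35.8% were (19.3% higher, 16.5% lower). At 24 h 1 was higher and 1 lower, with 28.3% of all genes called (16.8% higher, 11.5% lower). The count of members is near what those shares give. At an unadjusted p under 0.05 limma placed 0 members lower untreated and 0 at 8 h.

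The response to TGF-β was also compared between KD and control cells, as a difference of log2 changes. With limma 0 of the 7 genes passed at 8 h and 0 at 24 h, where 4.06% (2.45% higher, 1.61% lower) and 4.72% (2.73% higher, 1.98% lower) of all genes were called, and at an unadjusted p under 0.05 there was 1 at each time. At 8 h this was Fos, whose rise was larger in KD cells by 0.49 (95% interval 0.17 to 0.82, adjusted p = 0.0957 by limma). At 24 h it was Fosl1, with -0.63 (95% interval -1.16 to -0.10, adjusted p = 0.152 by limma). Without the first KD replicate at 24 h, 3 genes passed: Junb (-0.28), Fosl1 (-0.86) and Atf3 (0.43).

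Around the members, genes of lists chosen for their role, with earlier results of these data known, were read with the same test. Of 19 tested genes known as AP-1 targets, 13 were higher and 4 lower at 8 h in parental cells and 12 higher and 5 lower at 24 h, which is 68.4% and 21.1% at 8 h and 63.2% and 26.3% at 24 h. For all genes the matching shares were 22.4% and 32.1% at the earlier time, then 33.4% and 37.1%. The list's median log2 change was 0.51 and 0.82, against -0.05 and -0.02 over all genes. Without the second untreated library 2 rather than 4 were lower at 8 h. Those named by size were Il11, a cytokine, Timp1, an inhibitor of metalloproteinases, and Ptgs2, the inducible cyclooxygenase. Il11 went from 10.6 and 10.7 FPKM to 125 and 106 FPKM in parental cells at 24 h, and Timp1 from 60.3 and 59.4 FPKM to 224 and 216 FPKM. In control cells 12 of the 19 were higher and 6 lower at 24 h (25.5% higher and 45.1% lower over all genes), and in KD cells 11 were higher and 7 lower (28.6% and 43.3% over all genes).

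Of 25 tested genes of the MAP kinase cascades, which lie upstream of AP-1, 11 were higher and 4 lower at 8 h in parental cells. These are 44.0% and 16.0%, beside 22.4% and 32.1% of all genes. Without the filter on low values 9 were higher. Fewer than 11 were higher whenever 1 library of either group was left out. At 24 h 10 were higher and 8 lower in parental cells (40.0% and 32.0%), near the 33.4% and 37.1% of all genes. In control cells the shares were 40.0% and 28.0% at 8 h (19.4% and 44.9% of all genes). At 24 h they were 44.0% and 32.0% in control cells (25.5% and 45.1% of all genes). KD cells had 48.0% and 32.0% at 8 h (23.0% and 44.8% of all genes). Dusp5, a nuclear phosphatase of ERK, rose by 1.72 at 24 h in control cells (adjusted p = 3.02e-07), and Dusp6, its cytoplasmic relative, fell by 1.62 at 24 h in parental cells (adjusted p = 3.34e-05). Map2k1, which encodes MEK1, rose by 1.5 at 8 h in control cells (adjusted p = 2.14e-07) and Map3k1 fell by 1.17 at 24 h there (adjusted p = 9.92e-06). By mean FPKM, Dusp5, Dusp6, Map2k1 and Map3k1 each moved the same way at that time in parental, control and KD cells. Of 16 other basic leucine zipper genes, 6 were higher and 8 lower in parental cells at 24 h, beside 33.4% and 37.1% of all genes. Without either the first untreated library or the second 24 h library, 3 of these were higher. Among them Nfe2l2, the regulator of antioxidant genes, fell by 1.59 at 24 h in KD cells (adjusted p = 1.8e-08). Its mean fell alike in all cells, from 105 to 41.3 FPKM in parental, 99.3 to 35.4 in control and 109 to 35.4 in KD cells. Ddit3 fell by 1.11 at 8 h in control cells (adjusted p = 9.14e-06), and its mean fell from 26.0 to 12.1 FPKM in KD cells. Maff and Cebpb rose by 1.03 at 24 h in control and by 1.02 at 8 h in KD cells (adjusted p = 1.18e-05 and 0.00031). Mean Maff also rose at 24 h in KD cells, from 12.5 to 21.2 FPKM, and mean Cebpb at 8 h in control cells, from 9.66 to 15.6 FPKM. In parental cells Maff changed by -0.19 at 24 h (adjusted p = 0.0157) and Cebpb by -0.03 at 8 h (adjusted p = 0.852).

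Other immediate early genes give a setting for Fos. In parental cells 7 of 15 tested were higher and 5 lower at 24 h (46.7% and 33.3%, beside 33.4% and 37.1% of all genes), Gadd45a, a stress gene, going from 4.94 and 4.34 FPKM to 42.2 and 40.3 FPKM and Gadd45b from 15.5 and 14.7 FPKM to 58.4 and 60.5 FPKM. In untreated shRNA cells 6 of 18 were higher in KD than in control cells and 0 lower, against 10.6% and 9.09% of all genes. At an unadjusted p under 0.05 limma gave 6 higher and 2 lower. Ctgf, a secreted matricellular protein, was at 148 and 157 FPKM in KD against 75.5 and 72.0 FPKM in control cells, and its relative Cyr61 at 75.5 and 85.0 FPKM against 45.9 and 48.0 FPKM. The count was 3 without either untreated KD replicate. At 8 h 7 of the 18 were higher and 3 lower (19.3% and 16.5% of all genes), and at 24 h 4 were higher and 4 lower (16.8% and 11.5% of all genes). Leaving out 1 library gave 4 to 5 higher and 1 to 2 lower at 8 h, the fewest higher without the second control or second KD replicate and the fewest lower without the first control or second KD replicate. At 24 h it gave 1 (without the second control replicate) to 5 higher and 2 (without the first control replicate) to 6 lower, and with only the compared groups fitted 0 were higher and 1 lower. Egr1, another serum response factor target and chosen here after its values were seen, was higher in untreated KD cells by 0.40 (adjusted p = 0.0412) but lower at 8 h by 0.73 (adjusted p = 0.00184) and at 24 h by 0.72 (adjusted p = 0.00295).

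In the comparison of responses at 24 h, 6 immediate early genes and 5 AP-1 targets rose less or fell more in KD than in control cells, and 0 and 1 the other way, where 2.73% of all genes were higher and 1.98% lower. At an unadjusted p under 0.05 limma gave 7 and 10 lower, and 0 and 3 higher. The 6 were Ctgf, Cyr61, Egr1, Ier2, Klf6 and Myc, the 5 were Hbegf, Lif, Mmp13, Plaur and Vegfa, and Spp1 went the other way, all named after their values were seen. Leaving out 1 library moved the 6 to between 2 (without the first untreated KD replicate or the first 24 h control replicate) and 7, and the 5 to between 1 (without either untreated KD replicate or the first 24 h control replicate) and 10 (without the first 24 h KD replicate). The count of AP-1 targets that went the other way, 1, was 0 to 4, the 4 without the first 24 h KD replicate. Ctgf and Cyr61 differed by -0.83 and -0.87 (adjusted p = 0.00527 and 0.00432). Both started higher in KD cells, so a smaller response did not always end at a lower level. Mean Ctgf was 152 FPKM in KD against 73.7 in control cells untreated, and 931 against 802 at 24 h. Mean Cyr61 was 80.3 against 47.0 FPKM untreated and 237 against 256 at 24 h. Dusp6 of the MAP kinase list also started higher, at 33.1 against 21.8 FPKM, and was at 10.2 against 12.7 at 24 h. Of the MAP kinase list 4 were lower and 0 higher (6 and 1 at an unadjusted p under 0.05 by limma), all phosphatases of MAP kinases, Dusp6 among them by -0.88 (adjusted p = 0.00129), and leaving out 1 library moved the 4 to between 1 (without the second untreated KD replicate or either 24 h control replicate) and 6 (without the first 24 h KD replicate, where 2 were higher).

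Genes whose levels followed each member most closely over the 18 libraries, after centring each table, were read from 2145 genes that changed. For Jun they were Rab11fip5, Cttnbp2nl and Ctsw (Pearson r 0.993, 0.992 and 0.992), for Junb 2310007B03Rik, Snai1 and Rgs12 (0.994 each), and for Fosl2 Zyx, Fbln2 and Wisp1 (0.993, 0.991 and 0.989). For Fos they were Itgb4, Sc5d and Golm1 (0.977, 0.970 and 0.969). Fosl1 was followed by Ccdc85b (0.973), the gene that overlaps it, then by Vps37b and Hmga1 (0.960 and 0.948). Jund and Atf3 had looser neighbours, Pfkp, Fstl1 and AU021092 (0.880, 0.876 and 0.875) and Dlx3, Palmd and Hoga1 (0.858, 0.842 and 0.770). These values describe 18 libraries that share the time course and its treatments.

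The members' loci were next read in the lamin B1 lists, which hold 4645, 10484 and 7083 peaks at 0, 8 and 24 h. A peak within the gene or up to 2500 bp before its start was listed for 6 of the 8 genes in untreated cells, for 6 at 8 h and for 4 at 24 h, against 19.9%, 38.8% and 29.4% of 20994 genes. Within 500 bp of the start it was 4, 6 and 3 genes, against 15.4%, 30.5% and 23.8% of all. There is 1 library per time and no replicate, so no difference between times was tested, and the lists differ in length. Scores are those of the MACS peak caller, and none is under 50.

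Junb carried one of the highest-scoring lamin B1 peaks at every time. The peak covered its start and most or all of the gene, with scores of 206.58, 482.73 and 326.96, above 98.0%, 99.7% and 98.69% of the peaks in the list of that time. Jund (chr8:73221638-73224515, plus strand) also had a peak at each time, with scores of 246.4, 375.8 and 252.19, above 99.03%, 99.37% and 97.05% of each list. Its peak began inside the gene, 104, 401 and 736 bases past the start. Both genes are short and without introns.

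Fosl2 had a peak before its start untreated and over its start at 8 and 24 h, with scores of 84.74, 181.23 and 259.24, above 69.52%, 92.79% and 97.33% of each list. Fosl1 (chr19:5447703-5455945, plus strand) had a peak over its start at all times, with scores of 115.29, 221.28 and 112.83, and further peaks within or next to the gene. Jun had lamin B1 peaks at 8 h only, 2 within the gene with scores of 72.45 and 58.02, above 41.17% and 17.04% of that list. Atf3 (chr1:192994175-193007219, minus strand) had a peak before the start untreated (66.07), a further peak over the start at 8 h (168.65) and none at 24 h. Fos had 1 low peak before the start in untreated cells (52.39, above 8.68% of the list), and Fosb had none by this rule at any time.

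Thus Junb, Jund, Fosl1 and Fosl2 had a peak at all 3 times, while their RNA rose, did not pass the test, fell and rose in parental cells at 24 h. Fos and Fosb, the genes lowest in RNA, had the fewest lamin B1 peaks, and Atf3 had none at 24 h, when its RNA in parental cells was highest.

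In the ATAC lists, which hold 9782, 10340 and 33811 peaks, all 8 genes had a peak by the same rule untreated, 6 at 8 h and 8 at 24 h, against 37.0%, 32.9% and 60.0% of all genes. Within 500 bp of the start it was 6, 6 and 8, against 30.6%, 25.0% and 47.1%. With only peaks at or above the median score of the list, 4 rather than 8 remained in untreated cells. Fos (chr12:86814840-86818223, plus strand) had a peak over its start untreated (95.12) and at 24 h (332.33), and none there at 8 h, the time of its highest RNA. The Fos region with the CArG box shown above was listed at all times, with scores of 149.07, 65.3 and 258.13.

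Junb (chr8:87500811-87502617, minus strand) had a peak from -3058 to -587 relative to the start untreated (56.51) and one over the start at 24 h (69.59), and none by this rule at 8 h. Jun had a peak over its start at all times (57.72, 52.4 and 382.92), and the region 16 kb downstream shown above scored 68.17 at 8 h and 184.69 at 24 h. The Fosb region 7 kb before the start scored 72.36 at 8 h and 340.05 at 24 h. Fosl2 (chr5:32438845-32460204, plus strand) was listed at each time (99.16, 110.07 and 561.12), as was the Atf3 start (270.07, 143.33 and 544.84), and Atf3 had a peak from -7068 to -6147 relative to the start at 24 h only (222.65). The 24 h list is the longest, and scores were not compared between times.

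**Figure D4:**
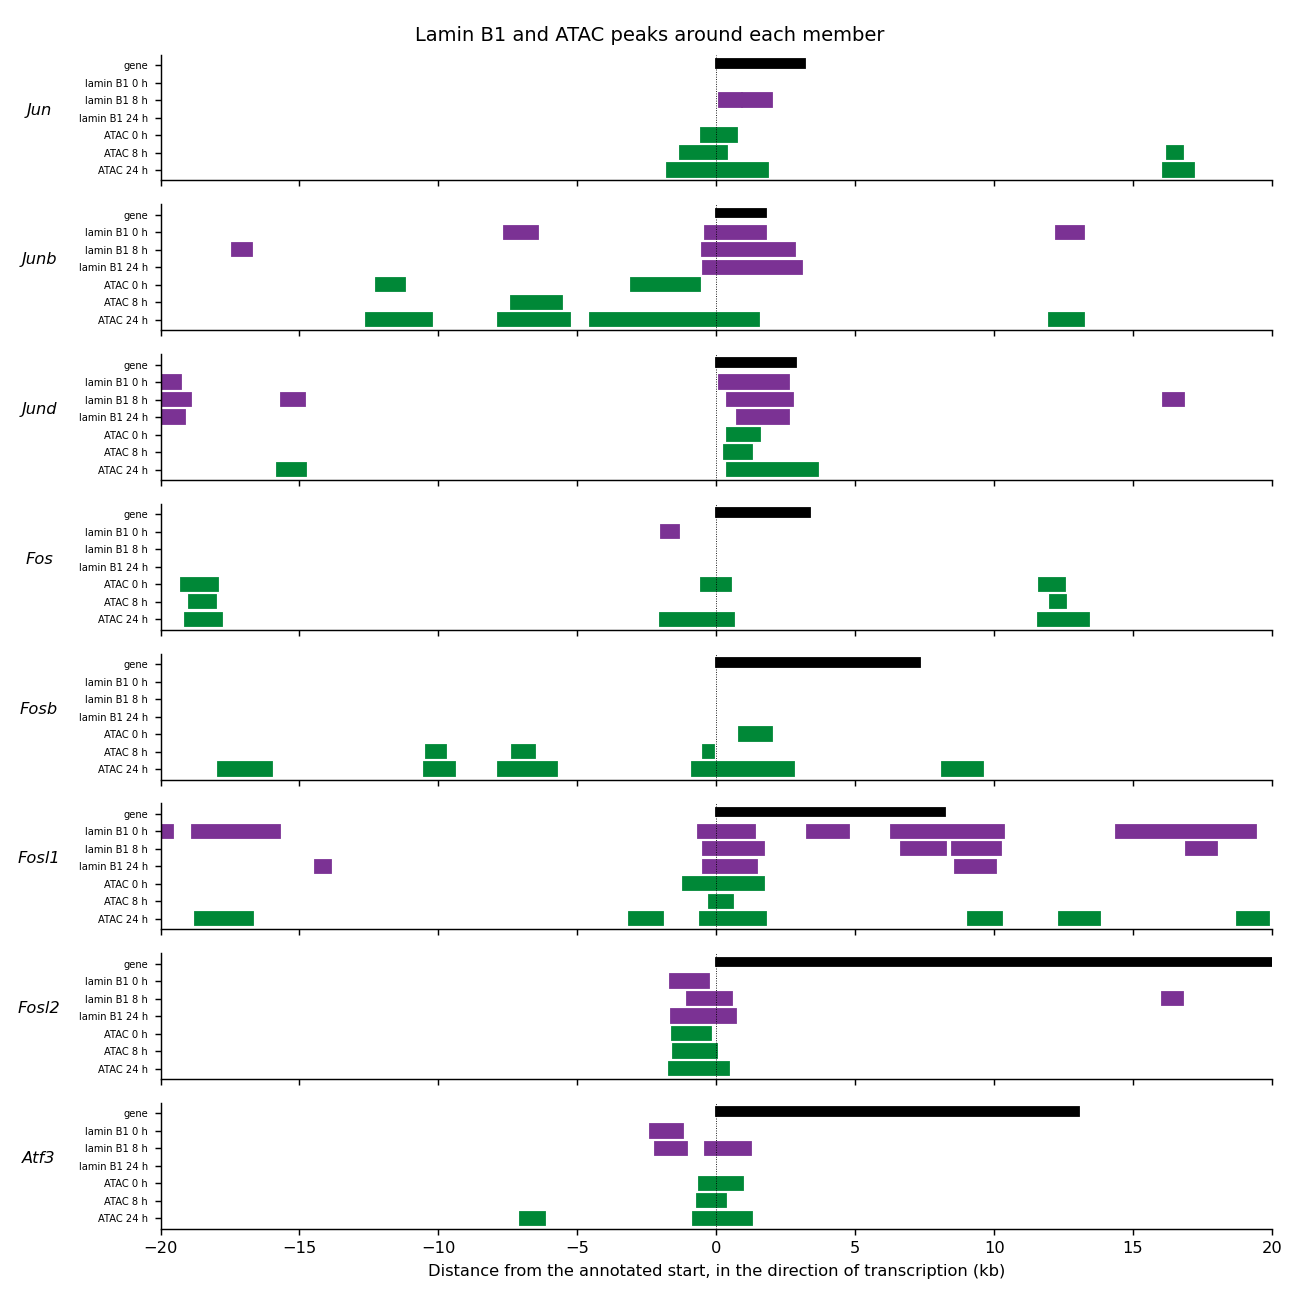
Lamin B1 peaks (purple) and ATAC peaks (green) at 0, 8 and 24 h within 20 kb of each gene's annotated start, as distance in kb in the direction of transcription; black bars are the genes, cut at 20 kb for Fosl2, and peaks are cut at the edges. Junb, Jund, Fosl1 and Fosl2 have a purple bar at or near the start at all 3 times, and Fosb has none near it.

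Finally, TGANTCA, the looser form of the letters that AP-1 binds, was counted in the central 300 bp of every peak. TGANTCA stood in 19.3%, 31.8% and 41.1% of ATAC peak centres at 0, 8 and 24 h, and in 3.49%, 3.01% and 2.24% of lamin B1 peak centres. The peaks were then divided by their distance to gene starts and cut to lists of equal length, choices made after seeing the data. ATAC peaks near a gene start held the letters seldom, in 4.17%, 4.78% and 6.57% of centres within 500 bp of a start. Further away it stood in 42.9% (Wilson 95% interval 41.3% to 44.5%), 55.9% (54.6% to 57.2%) and 54.8% (54.2% to 55.4%) of centres. The same letters reversed, ACTNAGT, stood in 10.1%, 12.2% and 12.9% of these.

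Among the distant ATAC peaks the share was thus higher at 8 and 24 h than untreated by more than the counting intervals, and like at 8 and 24 h within them. Each time is 1 library, so these intervals cover counting error only and not the spread between cultures. In lists of equal length, the 9782 highest scores, the shares over all peaks were 19.3%, 31.5% and 24.9%. The mean GC content of ATAC centres was 60.1%, 57.0% and 52.2%, and that of lamin B1 centres 66.7%, 67.1% and 69.6%, and their part in the shares was not tested. The letters are shared by all AP-1 dimers, so they do not tell which member would bind.

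**Figure D5:**
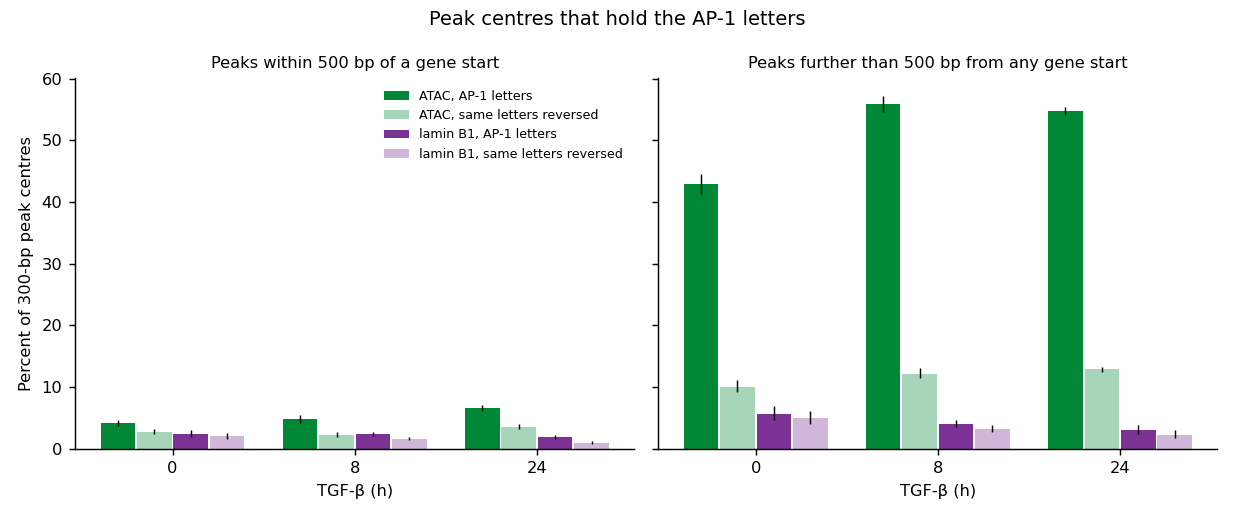
Percent of 300-bp peak centres (y axis, from 0) that hold TGANTCA or its reverse ACTNAGT, against hours of TGF-β, for ATAC (green) and lamin B1 (purple) peaks near to and far from gene starts; lines are Wilson 95% intervals for counting error. The tallest bars are the distant ATAC peaks, at 42.9%, 55.9% and 54.8%.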

How the data were processed

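RNA values were FPKM, made by the authors with TopHat and Cufflinks on mm9, tools that the submitters' processing notes name without versions. Both deposited tables lack a header, so columns were assigned by the order that the sample descriptions give, and 0 columns stayed unassigned; parental columns carry no replicate number. Levels were set to log2(FPKM + 1). A gene entered the test once 2 libraries reached 1 FPKM (11309 parental and 11450 shRNA genes). The test was limma 3.58.1 in R 4.3.3, all libraries of a table in 1 fit with a variance trend and Benjamini-Hochberg adjustment over all tested genes. A gene was called at an adjusted p under 0.05. The fit was tested on simulated data. RNA p-values rest on 2 libraries per group, said in the methods to be biological replicates. They measure only the spread within groups, pooled over all groups of a table and drawn towards the trend over all tested genes.

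Peak lists were deposited with a score that the authors' peak caller, MACS, gave each region after Bowtie alignment. The study made IgG control experiments and subtracted them in its lamin B1 profiles, while whether they entered the peak calling, and its version and threshold, are not given in the sources used here. Gene positions came from GENCODE M1 on mm9, with a gene taken as its body plus 2500 bp upstream. Letters were searched on both strands of the 300 bp around each peak's middle, with Wilson 95% intervals that cover counting error only. Python 3.11.15, pandas 2.3.3, numpy 2.4.6, scipy 1.17.1 and matplotlib 3.10.9 were used.

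The 8 genes and the gene lists were chosen with earlier results of these data known. From each list up to 4 genes were named, those with the largest absolute log2 change among called genes with a group mean of at least 5 FPKM, and for each of the 8 genes the 3 with the highest Pearson r. A gene that this rule names is not reported here. The fits were repeated after quantile normalization, with 0.1 in place of 1 as the constant, without the low-level filter, on the compared groups alone, with a replicate block and with each library omitted. Hi-C files were not analysed here.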

Additional observations from a re-analysis of the deposited data

How the results depend on the processing

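Under the alternatives run, 0 called changes of the 8 genes turned their direction. Of 803 values for single genes under alternative settings, 14 gained a call, 24 lost one and 765 were counted as unchanged. The 765 include changes called in neither fit, whose direction could turn. For Jund in untreated KD against control cells, for example, the change ran from -0.21 to 0.23. They also include the values of Fosb without the filter, which was not tested in the main fit and passed against untreated cells as given above. With only the compared groups in the fit, the members called in KD against control cells numbered 0 untreated, 2 at 8 h and 1 at 24 h, where the reported numbers were 1, 1 and 2; at 24 h leaving out 1 library gave 1 to 4. For the difference of responses at 24 h, with 0 members reported, leaving out 1 library gave 0 to 3. With only ATAC peaks at or above the list median, 4 members had a peak in untreated cells. Over all genes, KD against control gave 2254, 4104 and 3241 calls, and 732 untreated and 710 at 24 h with only the compared groups, with 689 to 2506, 2330 to 2440 and 1205 to 4487 when 1 library was left out. The difference of responses gave 465 and 540 calls, 714 and 88 with only the compared groups, and 29 to 1485 and 87 to 2709 with 1 library left out.

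Differences of same-numbered shRNA replicates correlated between groups at -0.135 to 0.368, so the numbers were not taken to pair the samples. A replicate block changed no call of a member and gave 284 rather than 465 genes for the difference of responses at 8 h. Depth is unknown for all files, 2 libraries stand for each RNA group and 1 library for each ChIP and ATAC time, which limits low genes such as Fosb and every comparison of peaks between times.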
